A study of Homo sapiens with 2 samples.

Results

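The genes described here are 8 genes by which prostate cells and their response to androgen are commonly followed: KLK2, KLK3, TMPRSS2, FKBP5, HOXB13, FOLH1, STEAP1 and STEAP4. They were chosen by name from a table of 58174 Ensembl gene identifiers, and each of the 8 matched 1 identifier. Messenger RNA was sequenced from PC3, an established human prostate cancer cell line that grows without androgen. There were 2 libraries, both of PC3 cells transfected with siRNA: 1 received a control siRNA, and 1 received an siRNA against POH1, the proteasome's deubiquitinase, whose gene symbol is PSMD14. No expression construct, deletion or drug is named for either group, and the labels do not give the time after transfection. With 1 library per group no difference below has a replicate check, and no test, standard error or p-value was computed.

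The androgen receptor is a transcription factor of the steroid receptor family. Bound by androgen it moves to the nucleus, occupies androgen response elements in DNA and, with the pioneer factor FOXA1 and with HOXB13, switches on genes of the luminal secretory cells of the prostate. PC3 was derived from a bone metastasis and is widely used as a line with little or no androgen receptor. The receptor's own gene is not analysed here.

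The values are in TPM, a share of all transcripts in the library after correction for transcript length, so levels can be compared between genes. The read depth is unknown, so no detection limit can be given for a low value. PSMD14, the gene targeted, was at 50.9 TPM with control siRNA and 35.1 TPM with POH1 siRNA, so 69.0% remained. A difference below is log2(TPM + 1) with POH1 siRNA minus log2(TPM + 1) with control siRNA, a scale that understates the change of low genes, and a fold printed for a gene is a ratio of TPM values. Counts of genes past 1.5-fold are made on log2(TPM + 1), so a low gene can have a TPM ratio above 1.5 and still be counted as within. PSMD14 itself, with a difference of -0.52 and a TPM ratio of 1.45-fold, was within this limit. Over the 15008 genes averaging at least 1 TPM the median difference was 0.12, so a value near 0 lies slightly below the middle. Of these genes 10.2% were counted as higher and 8.88% as lower in the POH1 siRNA library.

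KLK2 and KLK3 are neighbouring kallikrein genes on chromosome 19 that encode secreted serine proteases, KLK3 being prostate-specific antigen, and both are textbook androgen receptor targets. Their upstream sequences are shown because they hold a response element through which KLK3 is known to be induced. The stretches below run from 200 to 101 bases before the transcription start, 5′ to 3′, from RefSeq on GRCh38.p14, both on the plus strand, KLK3 at chr19:50854715-50854814 and KLK2 at chr19:50873239-50873338. Capitals mark a match to GAACA and GTNCT with 4 bases of any kind between them, a loose form of the androgen response element.
KLK3: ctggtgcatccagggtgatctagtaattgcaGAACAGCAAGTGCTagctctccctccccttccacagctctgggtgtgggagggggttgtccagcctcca
KLK2: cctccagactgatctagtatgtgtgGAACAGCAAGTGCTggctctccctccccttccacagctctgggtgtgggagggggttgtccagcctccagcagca
The same 14 letters, GAACAGCAAGTGCT, lie in both, beginning 169 bases before the start in KLK3 and 175 bases before it in KLK2. Over the 250 bases before the start the genes were identical at 79.2% of aligned positions. On either strand 0.248% of 35116 RefSeq promoters of the same length (250 bases before to 50 after the start) held a match to the loose form, which was written with the KLK3 element in mind. The full palindrome, AGAACA and TGTTCT with 3 bases of any kind between them, whose matches are all matches to the loose form too, was found in 1 of them and in none of the members' promoters. The table held 6 promoters of 5 of the 8 genes, and those of FKBP5, STEAP1 and STEAP4 had no match to either motif in this window. A match is a run of letters and does not show that the receptor binds there.

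Both KLK2 and KLK3 were listed at 0 TPM with control siRNA and 0 TPM with POH1 siRNA. The zeros were shared with 19.6% of the 19762 protein-coding genes, which were also at 0 in both libraries. Across the table, 4 genes of 10 TPM or more in the control library were at 0 in the other, and 2 went the opposite way. Whether any listed 0 was a failed estimate was not tested. KLK2 and KLK3 were at 0 in both, so no fold can be given for them.

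The zeros of KLK2 and KLK3 were not those of the whole kallikrein cluster, whose 15 genes lie side by side on chromosome 19. In the order of the genes, KLK1 was at 0.223 TPM with control siRNA and 0.417 TPM with POH1 siRNA, KLK15, KLK3 and KLK2 were at 0 in both, and KLK4, another prostate kallikrein under androgen control, was at 0.238 and 0.120 TPM. The next genes were high. KLK5, a trypsin-like kallikrein of skin, was at 46.7 TPM with control siRNA and 85.6 TPM with POH1 siRNA, a 1.83-fold higher value, and KLK6 was at 142 and 139.6 TPM. Beyond them KLK7 was at 0.493 and 0.532 TPM, KLK8 at 2.65 and 3.36 TPM, and KLK14, the last gene of the cluster, at 1.30 and 2.98 TPM. KLK12 and KLK13 were again at 0 in both, and KLK9, KLK10 and KLK11 stayed under 1 TPM in each library. The cluster's transcripts in these cells therefore came mainly from KLK5 and KLK6, and none was listed for the genes from KLK15 to KLK2.

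**Figure D1:**
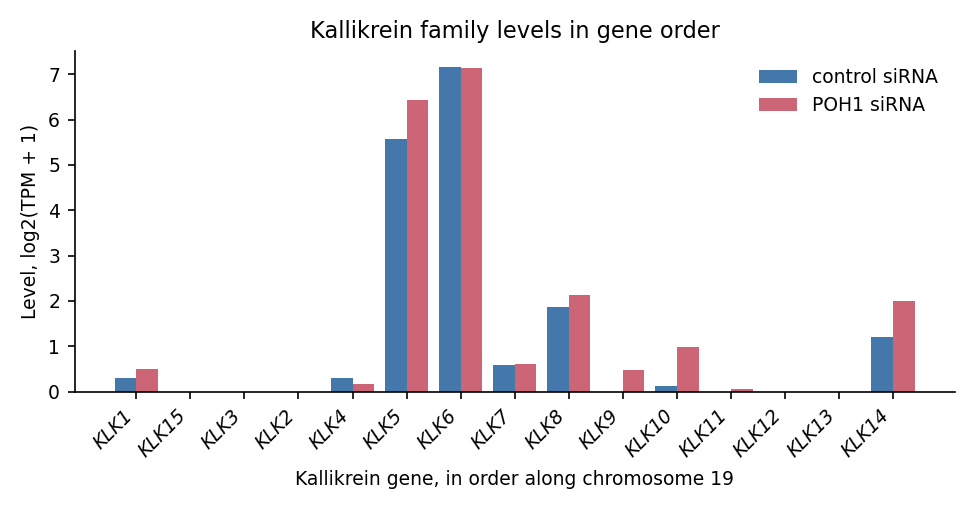
Levels of the 15 kallikrein genes as log2(TPM + 1), ordered along chromosome 19, with 1 bar for the control siRNA library and 1 for the POH1 siRNA library. KLK15, KLK3, KLK2, KLK12 and KLK13 have no bar in either library, while KLK5 (46.7 and 85.6 TPM) and KLK6 (142 and 139.6 TPM) stand above all the others.

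The other 6 genes were all detected in both libraries, over a wide range of levels. HOXB13 was highest, then STEAP1, and FKBP5 and FOLH1 were the lowest of the 6 in both libraries. STEAP4 stood above TMPRSS2 in the control library and below it in the POH1 siRNA library, so the order of these neighbours is not settled by the data.

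**Figure D2:**
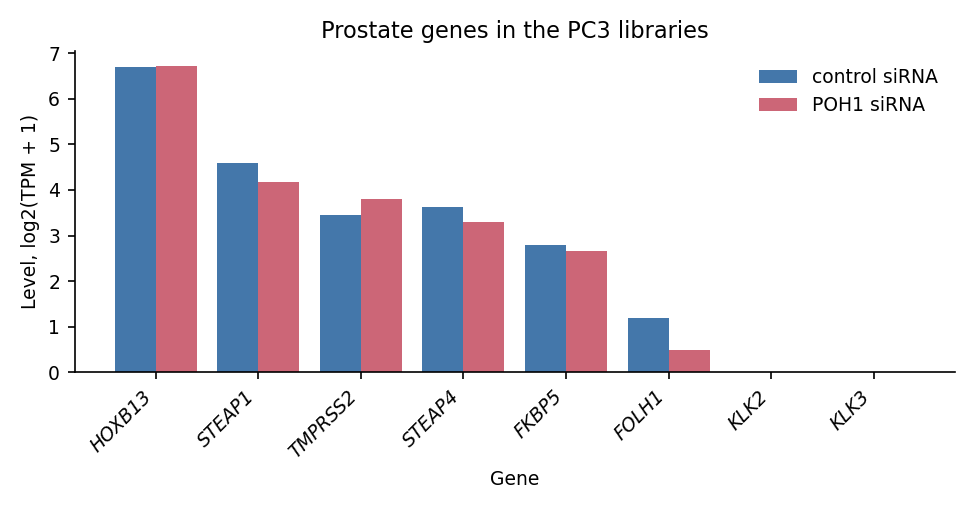
Levels of the 8 prostate genes as log2(TPM + 1), ordered by mean level, with 1 bar for each library. HOXB13 lies at 102 and 104 TPM, 5 genes lie between 0.402 and 23.2 TPM, and KLK2 and KLK3 are at 0 in both libraries.

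HOXB13 encodes the homeobox factor that marks the prostate lineage and binds together with the androgen receptor. It was at 102 TPM with control siRNA and 104 TPM with POH1 siRNA, a ratio of 1.02. That level was above 92.9% of protein-coding genes in the control library and above 92.5% in the other. HOXB13 was the highest of the 10 HOXB genes measured, ahead of HOXB9 at 22.6 and 21.7 TPM. Of the other genes of the HOX13 group, which pattern the hindmost body, HOXC13 was at 12.1 and 9.97 TPM, HOXA13 at 3.23 and 3.34 TPM, and HOXD13 was at 0 in both. Elsewhere in the cluster HOXB6 was 2.74-fold higher with POH1 siRNA (7.58 against 20.7 TPM) and HOXB3 2.21-fold higher (6.07 against 13.4 TPM). HOXB3 and HOXB6 overlap each other on the same strand, and both overlap the antisense gene HOXB-AS3 (1.03 and 5.59 TPM), so their values are uncertain, the first overlap even where strand was used. No other gene with a mean of 0.3 TPM or more overlaps HOXB13 in GENCODE release 29, and the same holds for the other 7 members.

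TMPRSS2 encodes a transmembrane serine protease of the prostate epithelium, and its androgen-driven promoter is often fused to ERG in prostate cancer. It was at 9.89 TPM with control siRNA and 12.9 TPM with POH1 siRNA, 1.30-fold higher, with a difference of 0.35. TMPRSS2 was the highest of the TMPRSS genes listed, followed by TMPRSS13 at 5.90 and 6.80 TPM. TMPRSS4 was 3.23-fold higher with POH1 siRNA but low, at 0.956 and 3.09 TPM. The related protease ST14 (matriptase) was far above TMPRSS2, at 219 and 285 TPM, and so were the inhibitors of these proteases, SPINT1 at 208 and 239 TPM and SPINT2 at 422 and 512 TPM. Hepsin, encoded by HPN and often high in prostate tumours, was listed at 0.0914 TPM with control siRNA and at 0 with POH1 siRNA.

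FKBP5 encodes FKBP51, an immunophilin that works with HSP90 on steroid receptors and is induced by androgen, glucocorticoid and progesterone. It was at 5.97 TPM with control siRNA and 5.29 TPM with POH1 siRNA, 88.6% of the control, and its difference was -0.15. FKBP5 was low for its family. Its partner and rival on HSP90, FKBP4, which encodes FKBP52, was at 104 and 107 TPM, and FKBP1A was the highest of the 16 family genes at 317 and 439 TPM. Of these 16, 15 averaged at least 1 TPM, with 1 at least 1.5-fold higher on log2(TPM + 1), FKBP6 (listed at 0 in the control and 2.62 TPM with POH1 siRNA), and 1 lower, FKBP7 (1.97 against 0.660 TPM), beside 10.2% and 8.88% of all genes.

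The glucocorticoid receptor shares many DNA sites with the androgen receptor and also induces FKBP5. Its gene, NR3C1, was at 1.48 TPM with control siRNA and 0.924 TPM with POH1 siRNA. Of 10 genes, NR3C1 and 9 classical targets of the receptor, 8 averaged at least 1 TPM, and none of the 8 was counted as past 1.5-fold on log2(TPM + 1) (median 0.27), against 19.1% of all genes in either direction. By TPM ratio NR3C1 was 1.60-fold lower and CEBPD 1.52-fold higher (18.3 against 27.8 TPM). PER1, a clock gene, was at 12.7 and 18.0 TPM, and DUSP1, a MAP kinase phosphatase, at 14.4 and 19.2 TPM. Of the 8 differences 6 were above 0 and 2 below, those of NR3C1 and ERRFI1 (75.7 against 67.0 TPM). ZBTB16, which both receptors induce, was at 0 in both libraries.

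FOLH1 encodes prostate-specific membrane antigen, the target of prostate imaging and radioligand therapy, which androgen represses in responsive cells. It was at 1.29 TPM with control siRNA and 0.402 TPM with POH1 siRNA, which is 31.2% of the control. Its mean of 0.845 TPM is below the limit of 1 TPM used for counting, and its difference on the log2(TPM + 1) scale was -0.71. Ratios of this size are common at such levels: of 3816 genes with a mean from 0.3 to 1 TPM, 15.9% had nonzero values that differed by at least 3-fold, against 1.15% of 3556 genes from 10 to 30 TPM. Of the 50-base stretches in FOLH1 transcripts 28.1% also occur in its near copy FOLH1B, which was at 0.0465 and 0.0517 TPM, so the level of FOLH1 depends in part on how such reads were shared out. Its paralogues NAALAD2, NAALADL1 and NAALADL2 were all under 1 TPM in both libraries.

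STEAP1 and STEAP4 encode 6-transmembrane epithelial antigens of the prostate, a family in which STEAP2, STEAP3 and STEAP4 reduce iron and copper and STEAP1 lacks the reductase domain. STEAP1 was at 23.2 TPM with control siRNA and 17.2 TPM with POH1 siRNA, 74.1% of the control, with a difference of -0.41. STEAP4, an androgen-induced member, was at 11.3 TPM with control siRNA and 8.90 TPM with POH1 siRNA, 78.8% of the control, with a difference of -0.31. STEAP2, the neighbour of STEAP1 on chromosome 7, was at 1.67 and 2.18 TPM. STEAP3, on chromosome 2, went the other way from STEAP1 and STEAP4, with 12.4 TPM with control siRNA and 21.6 TPM with POH1 siRNA (1.74-fold higher). Its transcripts had 57.6% GC, against 40.4% for STEAP1 and 39.2% for STEAP4, and differences moved with GC content in these libraries, as given below. With that trend taken out, STEAP3 was at 0.65, STEAP2 at 0.66, STEAP4 at 0.09 and STEAP1 at -0.04. Of the 50-base stretches in STEAP1 transcripts 21.4% also occur in STEAP1B, which was at 0.124 TPM in the control and 0 in the other, and 4.88% of those of STEAP4 occur in reverse orientation in the noncoding gene AC003991.1 (0.0763 TPM in the control and 0 in the other).

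Of the 8 members, 5 averaged at least 1 TPM, and none of them was at least 1.5-fold higher or lower on the log2(TPM + 1) scale. Over all 15008 genes of that level 10.2% were higher and 8.88% were lower (19.1% in either direction), so with only 5 genes a count of 0 is not a result about them. The median of the 5 differences was -0.15, against 0.12 over all genes, with 2 above 0 (TMPRSS2 and HOXB13) and 3 below (FKBP5, STEAP1 and STEAP4). The 3 genes below 0 were those of low GC content, which moved with the difference across the table (Spearman's rho 0.46 across 10114 genes of 5 TPM or more, all from the same pair of libraries). The transcripts of STEAP4, STEAP1 and FKBP5 had 39.2%, 40.4% and 43.5% GC, and those of TMPRSS2 and HOXB13 had 54.0% and 57.3%. The median difference was -0.15 for the 1051 genes with up to 40% GC, the class of STEAP4, and -0.17 for the 2830 genes from there to 45%, the class of STEAP1 and FKBP5. It was 0.15 for the 2732 genes above 50% and up to 55%, the class of TMPRSS2, and 0.24 for the 2686 genes above 55% and up to 60%, the class of HOXB13. After the trend with GC was taken out, STEAP4 was at 0.09, STEAP1 at -0.04, FKBP5 at 0.18, TMPRSS2 at 0.28 and HOXB13 at -0.08. The sign turned for STEAP4, FKBP5 and HOXB13, but these values centre on a median of 0.13 over all genes, not on 0. Against the median of all genes, only FKBP5 changed side, from below to above. STEAP4, STEAP1 and HOXB13 stayed below that median and TMPRSS2 above it. Scaling the libraries to a median ratio of 1 lowered differences by 0.13 and put HOXB13 at -0.10 and TMPRSS2 at 0.22. TMPRSS2 was above 0, and STEAP1 below it, in all 3 calculations. PSMD14, with 44.4% GC, went from -0.52 to -0.27 with the GC trend taken out.

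**Figure D3:**
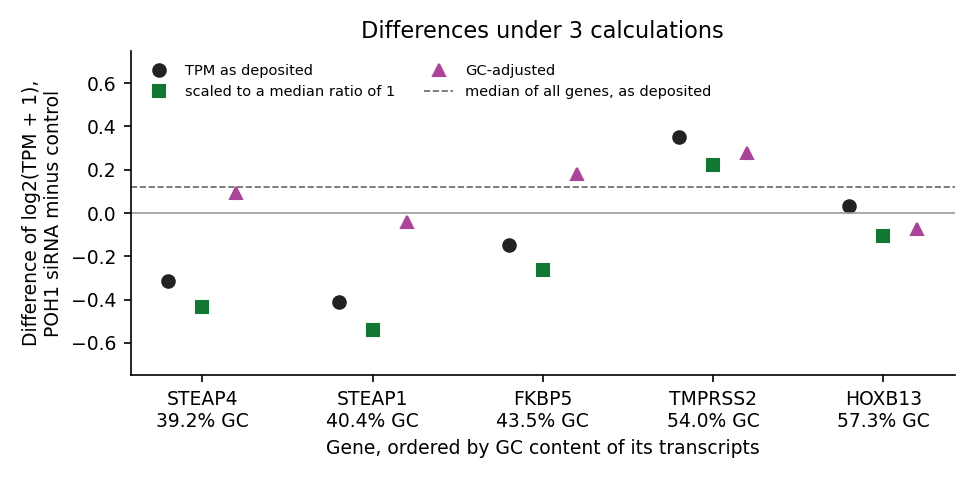
Difference of log2(TPM + 1), POH1 siRNA less control, for the 5 genes averaging at least 1 TPM, ordered by GC content, with 3 points per gene for the deposited TPM, TPM scaled to a median ratio of 1, and values adjusted for GC. STEAP1 goes from -0.41 to -0.04 with the GC adjustment, and HOXB13, with 57.3% GC, lies between -0.10 and 0.03.

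Of 20 luminal prostate markers, 14 averaged at least 1 TPM, unlike KLK2 and KLK3. Many genes pass that limit: ACP3, at 1.01 TPM with control siRNA, was above only 38.8% of protein-coding genes in that library. The simple-epithelium keratin KRT19 was at 1499 TPM with control siRNA and 1734 TPM with POH1 siRNA, KRT8 at 517 and 556 TPM, and KRT18 at 455 and 454 TPM (KRT8 and KRT18 overlap on opposite strands in the annotation). SLC45A3, a prostate-restricted transporter gene induced by androgen, was at 25.2 and 27.5 TPM, in contrast to KLK3 at 0. Secretory products differed in level. AZGP1, zinc-alpha-2-glycoprotein, was at 15.5 and 12.6 TPM, whereas ACP3, prostatic acid phosphatase, was at 1.01 and 1.13 TPM, and MSMB and the noncoding RNA PCA3 were at 0 in both. The luminal markers KLK4, KLK11, HPN and TRPM8 were under 0.3 TPM in both libraries. Basal markers divided. Of 12 basal markers, 8 averaged at least 1 TPM. CD44 (486 and 531 TPM), LAMB3 (483 and 683 TPM) and ITGB4 (147 and 203 TPM) were high. The basal keratins KRT15 (30.9 and 38.6 TPM) and KRT17 (19.8 and 13.4 TPM) were also expressed. KRT5, KRT14 and TP63 were each under 0.2 TPM in both libraries, and NGFR was at 0.0999 and 0.309 TPM. Of 18 neuroendocrine markers 5 averaged at least 1 TPM. ENO2, an enolase gene, was highest at 62.2 and 84.0 TPM, followed by FOXA2 at 13.4 and 18.2 TPM, PEG10 at 8.36 and 9.32 TPM and DLL3 at 5.07 and 3.58 TPM. PEG10 overlaps SGCE (57.8 and 47.2 TPM) on the opposite strand. On the same strand ENO2 overlaps LRRC23 (12.3 and 12.9 TPM) and FOXA2 overlaps AL121722.1 (1.46 and 0.234 TPM). CHGB, INSM1 and NEUROD1 were at 0 in both. Of 18 genes of organs other than the prostate, 16 were at 0 in both libraries, the exceptions being APOA2 (0.296 and 1.19 TPM) and the cardiac troponin gene TNNI3 (43.5 and 58.7 TPM).

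Counted on log2(TPM + 1), 1 luminal marker, FOXA1, was at least 1.5-fold higher, none was lower, and 13 lay within (median 0.14). By TPM ratio TRPV6, a low calcium channel gene among the 13, was 1.79-fold higher (1.36 against 2.43 TPM). None of the 8 basal and none of the 5 neuroendocrine markers averaging at least 1 TPM was past 1.5-fold on that scale (medians 0.22 and 0.14), where 19.1% of all genes were. The summed TPM went from 2897 to 3240 over the 20 luminal markers, from 1200 to 1509 over the 12 basal ones and from 91.0 to 117 over the 18 neuroendocrine ones. Abundant genes carry these sums: the median level of the same lists went from 13.7 to 13.6 TPM (luminal), from 12.7 to 11.6 TPM (basal) and from 0.0364 to 0.0092 TPM (neuroendocrine). The part of these shifts in the members' values was not tested.

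**Figure D4:**
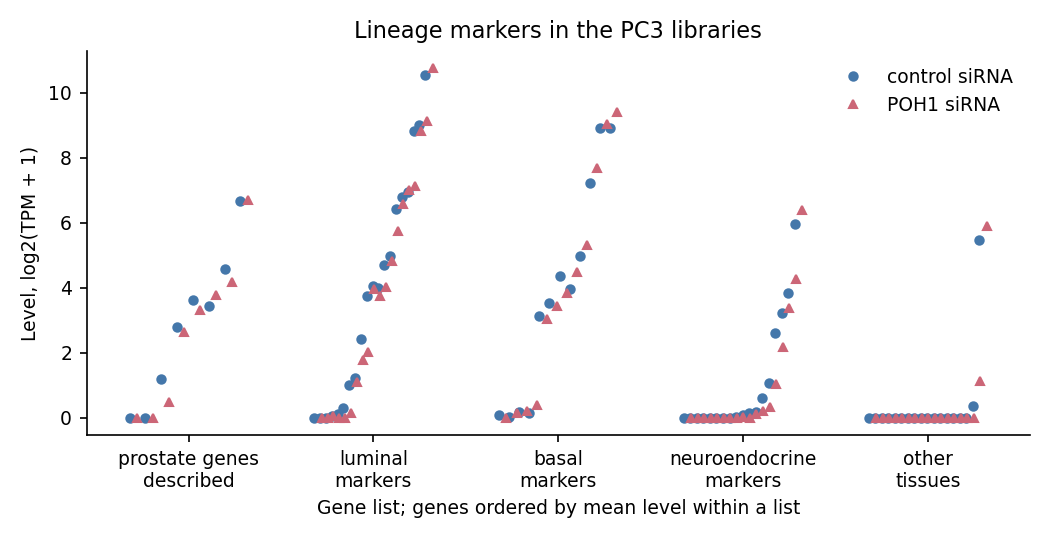
Levels as log2(TPM + 1) of the 8 prostate genes, 20 luminal, 12 basal and 18 neuroendocrine markers and 18 genes of other organs, with a circle for the control siRNA and a triangle for the POH1 siRNA library. The highest gene is KRT19 (1499 and 1734 TPM), listed as luminal, while the basal markers CD44 and LAMB3 lie near KRT8 and KRT18. Of the 18 genes of other organs, 16 are at 0 in both libraries.

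A wider list of genes known to be induced by androgen in prostate cells mostly passed the limit of 1 TPM, as many genes do. Of 26 such genes, none of them among the 8 members, 23 averaged at least 1 TPM, and KLK15, ZBTB16 and KLK4 did not. Of the 23, 3 were at least 1.5-fold higher on log2(TPM + 1) in the POH1 siRNA library, 1 was lower and 19 lay within, with a median of 0.19 (10.2% and 8.88% of all genes were higher and lower). Of the 19, MAP7, picked out after its values were seen, had a TPM ratio of 1.502 (9.34 against 14.03 TPM). SORD, which encodes the sorbitol dehydrogenase of seminal fructose production, was 2.33-fold higher (14.3 against 33.4 TPM). ALDH1A3, a retinaldehyde dehydrogenase and the most abundant of the list, was 1.60-fold higher (494 against 789 TPM), and the fatty acid elongase gene ELOVL5 was 1.53-fold higher (18.5 against 28.4 TPM). UAP1, an enzyme of UDP-N-acetylglucosamine synthesis, was 1.82-fold lower (61.7 against 33.8 TPM). SORD and ALDH1A3 overlap antisense genes, AC091117.1 at 2.39 and 0.316 TPM and AC015712.2 at 26.8 and 48.9 TPM. PMEPA1, a feedback inhibitor of TGF-beta signalling, was at 71.4 and 87.4 TPM, and SMS, spermine synthase, at 117 and 86.7 TPM, both counted as within 1.5-fold.

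Several partners of the androgen receptor were higher in the POH1 siRNA library. All 20 cofactors, coactivators, corepressors and chaperones listed averaged at least 1 TPM, and 8 of them (against 10.2% of all genes) were at least 1.5-fold higher on log2(TPM + 1), 1 was lower (against 8.88%) and 11 lay within, with a median of 0.21. Of the 11, EP300, picked out after its values were seen, had a TPM ratio of 1.54 (9.58 against 14.7 TPM). FOXA1 and GATA2 stand in this list and among the luminal markers. FOXA1, the pioneer factor that opens chromatin for the receptor, was 1.70-fold higher (30.8 against 52.3 TPM). The corepressor gene NCOR1 was 1.76-fold higher (22.7 against 39.9 TPM). CREBBP, a histone acetyltransferase, was 1.92-fold higher (7.10 against 13.6 TPM). Also among the higher genes were PTGES3 and STUB1, which encode the HSP90 cochaperone p23 and the ubiquitin ligase CHIP, at 51.5 and 89.3 TPM and at 113 and 185 TPM, and the coactivator gene NCOA3, picked out after its values were seen, at 7.30 and 12.4 TPM. HSP90AA1, the inducible HSP90 chaperone gene, was the lower one, at 439 and 187 TPM, while its constitutive counterpart HSP90AB1 was at 1621 and 1512 TPM. GATA2 was at 12.4 and 14.7 TPM. FOXA1 (TTC6), NCOR1 (TTC19 and PIGL), NCOA3 (SULF2), STUB1 (JMJD8) and HSP90AA1 (WDR20) each overlap, on the opposite strand, the gene given in parentheses. With libraries scaled to a median ratio of 1 the number of higher genes was 4, and with the GC trend taken out it was 5 (median GC of the list 47.1%). The share of all genes was not computed under these calculations, so these counts cannot be set against 10.2%.

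Genes of androgen synthesis and breakdown differed in level. Of 17 listed, 8 averaged at least 1 TPM. In both libraries 5 were at 0, among them SRD5A2, the main prostatic 5-alpha reductase, and the androgen-conjugating genes UGT2B15 and UGT2B17. Over all protein-coding genes 19.6% were at 0 in both libraries. A level of 1.01 TPM, that of ACP3 with control siRNA, was above 38.8% of them. With only 17 genes these counts are not a result about the list. CYP17A1, which makes androgen precursors, was listed at 0 in the control and at 0.630 TPM in the POH1 siRNA library. It overlaps WBP1L (24.3 and 27.4 TPM) on the opposite strand, so this low value is uncertain. SRD5A1, which encodes the other 5-alpha reductase, was 2.40-fold higher with POH1 siRNA (4.26 against 10.2 TPM). HSD17B4, a peroxisomal enzyme that oxidises steroids and fatty acids, was 2.08-fold lower (52.2 against 25.1 TPM), and AKR1C1, which inactivates progesterone and dihydrotestosterone, was 2.47-fold lower (11.4 against 4.61 TPM). AKR1C3, which makes testosterone from androstenedione, was at 41.8 and 40.4 TPM. On log2(TPM + 1), 1 of the 8 was at least 1.5-fold higher, 2 were lower and 5 lay within (median -0.06), against 10.2% higher and 8.88% lower over all genes. AKR1C genes are close copies of each other, so reads may have been divided between AKR1C1, AKR1C2 and AKR1C3.

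**Figure D5:**
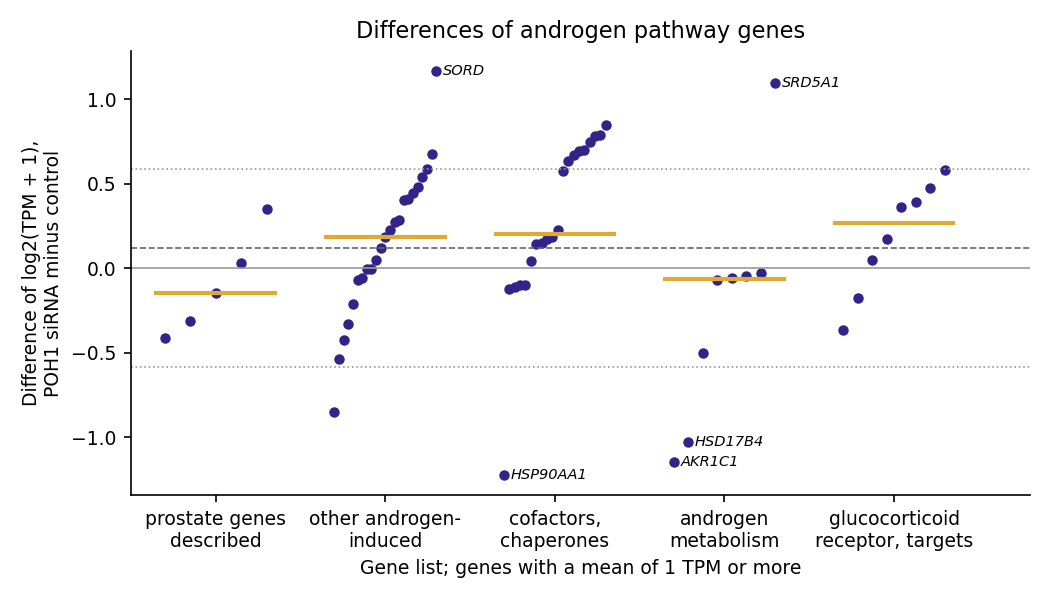
Difference of log2(TPM + 1), POH1 siRNA less control, for each gene averaging at least 1 TPM in 5 lists, with the list median as a yellow line, 0 as a solid line, the median of all genes (0.12) as a dashed line and 1.5-fold as dotted lines. The 5 prostate genes lie between -0.41 and 0.35, inside the dotted lines, whereas 8 of the 20 cofactors and chaperones lie above the upper one.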

How the data were processed

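RNA of PC3 cells was sequenced in 2 libraries, 1 per siRNA. Trizol-extracted RNA went into an mRNA library kit, per the labels' protocols. The submitters' processing notes name CASAVA, HISAT2 and build hg19. Not given in the sources used here: versions, annotation, quantifier, strand use and depth. The authors deposited gene-level TPM values, which summed to 999955 in the control and 999968 in the POH1 siRNA library. TPM is relative, and keeps no depth.

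Symbols came from a table of Ensembl identifiers (57392 of 58174 matched). Transcript GC content, overlaps and shared 50-base stretches came from GENCODE release 29 on GRCh38, not hg19. GC content was known for 99.8% of genes averaging at least 1 TPM. Members of lists with that mean were counted at 1.5-fold on the log2(TPM + 1) scale. The GC adjustment subtracted a running median over 501 genes of 5 TPM or more and added back the overall median. The scripts (Python 3.11.15, pandas 2.3.3) were tested on simulated data. Named genes were the 8 members, PSMD14, the 5 highest and the 4 with the largest difference of each list, and family members with their level; other list genes named (SLC45A3, GATA2, and markers at or near 0) were picked after their values were seen, as was the class from 0.3 to 1 TPM. Some genes that the rule names are counted in their lists but not reported singly here. Members and lists were chosen with earlier results of these data known. Alternatives were pseudocounts, filters, a 2-fold limit, 3 scalings and the GC adjustment.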

Additional observations from a re-analysis of the deposited data

How the results depend on the processing

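With 1 library per group, no replicate could be left out. No paired analysis was possible because the result comes from no test and each group has 1 library. Of the 117 alternative values of medians and of members' differences, none of which reached 1.5-fold in the main calculation except that of FOLH1, 1 moved by 1.5-fold or more: FOLH1, -1.47 with a pseudocount of 0.1 (-0.22 with a pseudocount of 5). The median of the members ran from -0.26 to 0.09. Without a filter 1 member was lower, FOLH1. Of 144 alternative counts, 26 moved by over 1.5 times, and the cause was not tested. At 2-fold, 1 other androgen-induced gene was higher and 0 lower, and 0 cofactors and 0 luminal markers were higher. With the GC adjustment, 5 androgen-induced genes were higher and 0 lower, 5 cofactors and 0 luminal markers were higher, 1 basal marker was higher and 1 lower, and 1 neuroendocrine marker was lower. Scaled to a median ratio of 1, and likewise with trimmed mean scaling, 1 androgen-induced gene was higher and 2 lower, 4 cofactors were higher and 1 basal marker was lower. Without mitochondrial and the 50 most abundant genes, 2 androgen-induced genes and 1 basal marker were lower. With a pseudocount of 0.1, 2 luminal markers were higher, and 1 glucocorticoid gene was higher and 1 lower. Without a filter, 2 genes of androgen metabolism were higher. The share of all genes past the limit was not computed at these alternative settings. Whether such counts differ from those of all genes therefore cannot be judged. The unknown depth limits what can be said of FOLH1 and of the genes at 0.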
